A study of Mus musculus with 38 samples.

Results

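The PSD95 family of membrane-associated guanylate kinases (MAGUKs) was followed through the ribosome footprints of its 4 genes, Dlg1, Dlg2, Dlg3 and Dlg4, out of 22401 genes in the count files. The members were taken as a list of gene symbols, with no threshold on a measured value, and all 4 passed the filter on low counts in each experiment. The assay was PL-Ribo-seq, in which the biotin ligase TurboID marks the proteins around it, streptavidin collects the marked complexes with their ribosomes, and the mRNA pieces under those ribosomes are sequenced. The series held 38 libraries in 14 groups, 10 groups of 3 replicates and 4 groups of 2, all from primary mouse cortical neurons that received lentivirus, cycloheximide for 2 min and, by the labels, biotin for 30 min.

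Every library belonged to neurons that carried 1 of 2 doxycycline-inducible baits, which differ in their PSD95 sequence. TurboID-PSD95 joins the 5′ UTR of Psd95, the ligase, a fluorescent protein, the PSD95 coding sequence (CDS) of the rat and the 3′ UTR of Psd95. Pan-TurboID holds the ligase and the fluorescent protein with no PSD95 sequence. In the KCl experiment, 24 libraries came from resting neurons and from neurons depolarized with 55 mM KCl for 1 h after silencing with tetrodotoxin and DL-AP5, for both baits, each as an input of all footprints and a streptavidin pulldown. In the DHPG experiment, 6 TurboID-PSD95 libraries came from neurons that were silenced in the same manner and then had DHPG, which activates group I metabotropic glutamate receptors, at 100 µM for 10 min. In the knockdown experiment, 8 TurboID-PSD95 libraries came from resting and KCl-depolarized neurons in which eIF4G2 was knocked down with 20 nM siRNA over 72 h. As models these groups have limits. The baits are overexpressed from a virus, each sample pooled several dishes, the resting controls of the DHPG and knockdown comparisons belong to the KCl experiment, and neurons given another siRNA were not analysed here.

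PSD95-family MAGUKs are scaffold proteins of the postsynaptic membrane. Each carries PDZ domains that hold the tails of receptors, channels and adhesion proteins, followed by an SH3 domain and a guanylate kinase-like domain that binds further scaffolds. Dlg4 encodes PSD95, the most abundant scaffold of mature excitatory synapses. Dlg2 encodes PSD93, its closest relative, Dlg3 encodes SAP102, which is prominent in young neurons, and Dlg1 encodes SAP97, which also acts in the sorting of receptors and is made in many other tissues. PSD95 is fixed to the membrane by palmitoylation of cysteines close to its start.

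The first 30 bases of each CDS are shown here because this end carries the palmitoylation signal, and because a start differs between isoforms. Capitals mark the ATG and every in-frame cysteine codon. The bases are those of the mm10 assembly, plus strand, for the annotated transcript with the highest footprint count of each gene.
Dlg1, chr16:31664852-31664870 and the next exon: ATGccggtccggaagcaagatacccagaga
Dlg2, chr7:91091007-91091036: ATGttctttgcaTGTtatTGTgcactccgg
Dlg3, chrX:100768072-100768101: ATGcacaagcaccagcacTGCTGTaagTGC
Dlg4, chr11:70018920-70018949: ATGgacTGTctcTGTatagtgacaaccaag
Dlg1 has 0 cysteine codons in these 10 codons, Dlg2 and Dlg4 have 2 each and Dlg3 has 3. In Dlg4 these 30 bases are a CDS segment of their own, shared by 5 annotated transcripts, the full-length one among them. Its footprints are thus counted apart from those of other annotated starts. In TurboID-PSD95 the PSD95 CDS follows the ligase and the fluorescent protein, so that footprints there do not measure this start.

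Levels are given as CPM, the count scaled to a fixed total of CDS footprints per library, with library sizes scaled by the TMM method, and each gene was read in 1 transcript. The longest transcript served for Dlg1 (CDS 2718 nt in 25 segments, chr16:31664852-31871781), Dlg2 (2985 nt, 27 segments, chr7:90477857-92444617) and Dlg3 (2550 nt, 21 segments, chrX:100768072-100816325). For Dlg4 the longest annotated transcript is a short form with a CDS of 822 nt and a 3′ UTR of 5463 nt that lies in an intron of the others. Tests across genes use that short form, as for all genes, while the levels of Dlg4 are given for the full-length transcript, which also had the highest count (CDS 2175 nt in 20 segments, chr11:70018920-70044695). Total counts per library lay between 5906281 and 35643247, so that the depth differed between libraries and low regions are read with care. Neuronal marker genes (Rbfox3, Tubb3, Snap25, Syt1 and Map2) summed to 4459 to 9514 CPM with none at 0 in any group, and markers of microglia to at most 23.4 CPM. Markers of astrocytes were present in every group, at 224 to 1344 CPM in sum.

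Without bait sequence, the 4 genes could be ordered by their CDS level per kilobase, here in the transcript with the highest count of each, which for Dlg2 has a CDS of 2559 nt. In resting Pan-TurboID inputs Dlg3 stood at 63.2 ± 1.45 CPM per kb (SD, n = 3) and Dlg4 at 61.8 ± 1.33, and their libraries overlapped. Dlg2 followed at 41.0 ± 0.871 and Dlg1 at 10.1 ± 0.607, each apart from its neighbour in the order. After depolarization the Pan-TurboID inputs gave 51.9 ± 8.38 for Dlg3, 37.7 ± 5.99 for Dlg2 and 35.9 ± 2.56 for Dlg4, where Dlg3 overlapped with Dlg2 and Dlg2 with Dlg4. Dlg1 stood apart from the others at 8.02 ± 0.615. Over the longest transcript Dlg2 stood at 35.2 ± 0.573 at rest, in the same place, and at 32.7 ± 5.59 after KCl, where its mean lay below that of Dlg4. In all 10 TurboID-PSD95 groups Dlg4 was the highest member, with means from 157.7 to 3714 CPM per kb, and its libraries stood apart from those of the next gene.

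Dlg4, which encodes the scaffold that the bait also carries, was the member whose footprints separated the baits most, in inputs as well as in pulldowns. In resting Pan-TurboID inputs its full-length CDS had 137, 131 and 135 CPM, and in the matching pulldowns 133, 147 and 151. In resting TurboID-PSD95 inputs it had 335, 427 and 541 CPM. In resting TurboID-PSD95 pulldowns it had 4239, 3704 and 10112 CPM. Inputs and pulldowns of Pan-TurboID thus overlapped, TurboID-PSD95 inputs lay above both, and the pulldowns of TurboID-PSD95 lay above everything else without overlap.

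The depolarized libraries had the same order, with a wider spread for TurboID-PSD95. Pan-TurboID inputs had 83.7, 78.1 and 72.5 CPM and their pulldowns 73.7, 78.3 and 83.0. TurboID-PSD95 inputs had 198, 387 and 627 CPM, and the pulldowns 1306, 4061 and 16161. Replicate 3 was the highest of its group in all 4 TurboID-PSD95 groups of the KCl experiment. Among the later experiments, DHPG inputs had 422, 401 and 398 CPM and DHPG pulldowns 4655, 4253 and 3905. The knockdown gave 370 and 364 CPM in resting inputs, 7363 and 8791 in resting pulldowns, 346 and 340 in depolarized inputs, and 6481 and 8059 in depolarized pulldowns. These groups of the later experiments were tighter than the TurboID-PSD95 groups of the KCl experiment.

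**Figure D1:**
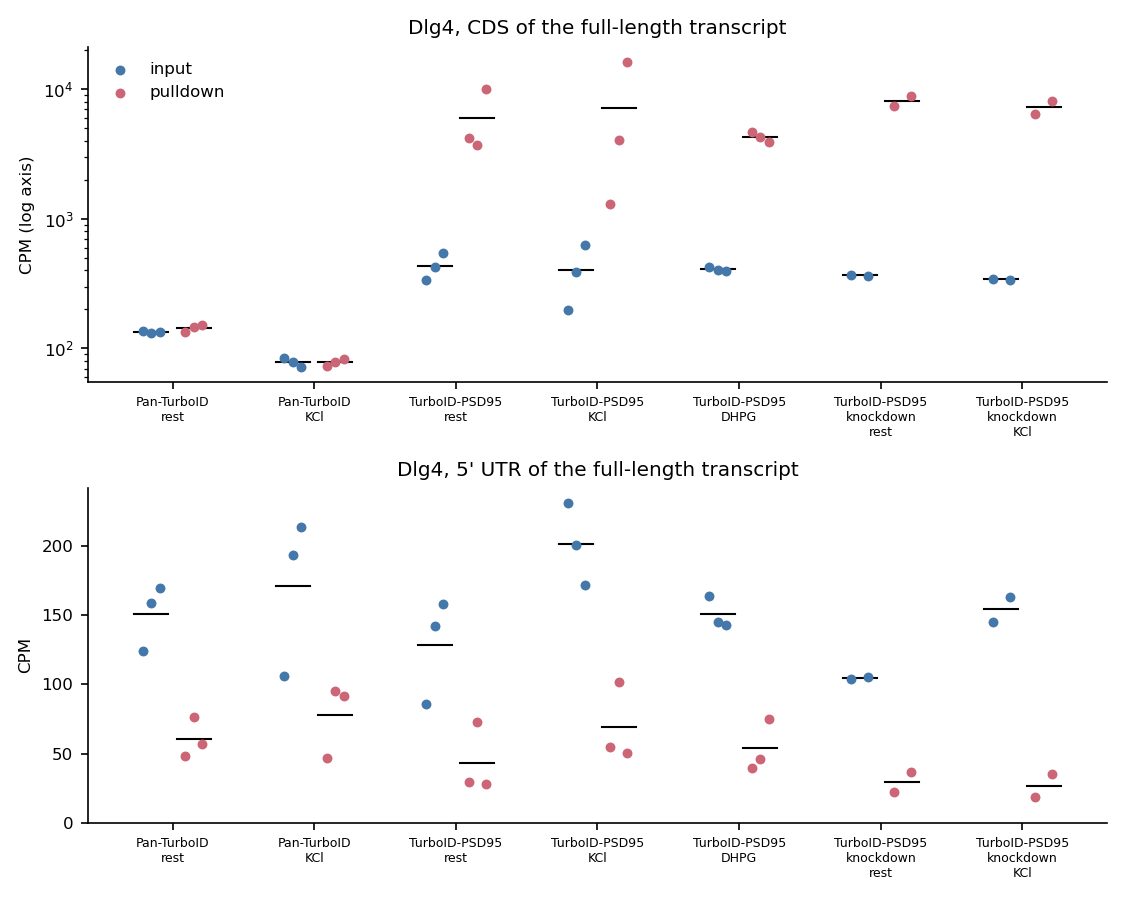
Footprints of Dlg4 in CPM by group, each point 1 library, with the CDS on a log axis and the 5′ UTR on a linear axis, both for the full-length transcript. The CDS of TurboID-PSD95 pulldowns lies at 1306 CPM or above in every library, while the 5′ UTR shows no such step between baits.

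In ratio to its own input, the full-length CDS stood at 0.974 to 1.12 in resting and 0.881 to 1.14 in depolarized Pan-TurboID pulldowns. It stood at 8.67 to 18.7 and 6.59 to 25.8 in the TurboID-PSD95 pulldowns, at 9.81 to 11.0 with DHPG, and at 19.9 to 24.1 and 18.7 to 23.7 in resting and depolarized knockdown neurons. The question of whether the pulldown gains with the bait was tested as the difference of the 2 pulldown-over-input changes. It was 4.17 ± 0.64 on the log2 scale for Dlg4 (SE, edgeR FDR 0.0412), 1.16 ± 0.35 for Dlg1 (edgeR FDR 1), 0.05 ± 0.21 for Dlg2 and -0.26 ± 0.22 for Dlg3. Dlg4 was the 1 gene of 13019 to pass, a background of 0.00768%, and the call was lost without replicate 1 (edgeR FDR 0.115) or replicate 2 (edgeR FDR 1), with the difference at 4.28 and 4.37. It was also lost with no filter on low counts and with the trend over CDS length removed. In the full-length transcript the difference was 3.93 ± 0.60 (edgeR FDR 0.0373). With input and pulldown of the same number as a pair, it was 3.89 ± 0.26 in the short form (edgeR FDR 6.81e-07, 0.0154% of genes passed).

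Set directly against Pan-TurboID pulldowns, TurboID-PSD95 pulldowns were higher in Dlg4 by 6.09 ± 0.53 on the log2 scale (edgeR FDR 9.36e-06), where 0.0154% of genes passed. The call was lost without replicate 2, at 6.38 (edgeR FDR 0.148). Between inputs of the 2 baits, Dlg4 differed by 1.92 ± 0.45 (edgeR FDR 1). No gene of 13019 passed edgeR's quasi-likelihood test in that comparison, and 197 genes had an unadjusted p under 0.05. DESeq2 and edgeR's likelihood ratio test called 0 genes as well. As 197 lies below the share of 0.05 that no difference would give, the quasi-likelihood test was strict. Its 0 calls do not show equal inputs. Footprints of the virus-borne and of the cell's own PSD95 mRNA cannot be told apart within the Dlg4 CDS, and whether reads of the rat sequence align to every exon of the mouse gene was not tested.

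To see which stretches of Dlg4 differed between the baits, every distinct segment of its 22 annotated transcripts was read, 73 in all, of which 52 had enough counts to test among 187058 segments. Segments overlap one another, so that their values are not independent. All 20 CDS segments of the full-length transcript were higher in TurboID-PSD95 than in Pan-TurboID pulldowns, by ratios of mean CPM from 34.3 to 232 (median 60.8). Of these, 19 passed the test (edgeR FDR under 0.05) and 19 had no overlap between the 6 libraries of either bait. The exception to the latter was chr11:70031089-70031258. How many of all segments stand apart in this manner was not counted, so that the number without overlap is a description only. The segments that start at 70018920 and 70030595 each had 1 count in inputs and 6 in pulldowns of Pan-TurboID, so that they passed the count filter through TurboID-PSD95 libraries, where they are high, and their calls add no support. Over all segments, 46 passed in that comparison, 44 of them higher (0.0235%), and 41 of the 44 belonged to Dlg4. In inputs the 20 ratios ran from 2.28 to 46.4 and 5 passed, against a background of 0.00588%. In the difference of the pulldown-over-input changes 12 of the 20 passed, where 0.0134% of all segments were higher. Without replicate 2, 0 Dlg4 segments passed in that difference, and in inputs 0 passed without replicate 2 or without replicate 3.

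The first CDS segment of the full-length transcript, chr11:70018920-70018949, whose bases are printed above, had 0.0820 CPM in Pan-TurboID inputs and 0.223 in their pulldowns. In TurboID-PSD95 libraries it had 1.53 CPM in inputs and 36.4 in pulldowns, a pulldown ratio of 163. The alternative first CDS segments that start at 70017215, 70024070, 70026999 and 70029864 had 0, 42, 27 and 0 counts in the 24 libraries together, too few to test. As some of these segments are only 12 to 42 nt long, such counts do not tell whether those starts are used. A further start at 70030625 lies inside the full-length CDS and had a ratio of 130. The largest ratios were those of 2 short segments, 232 at chr11:70041772-70041808 and 170 at chr11:70041901-70041928, the latter being the 1 CDS segment that did not pass between pulldowns (edgeR FDR 0.0874). The smallest were 34.3 at chr11:70041340-70041516 and 34.8 at chr11:70039484-70039586, so that the least affected part of the CDS was still far above 1.

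**Figure D2:**
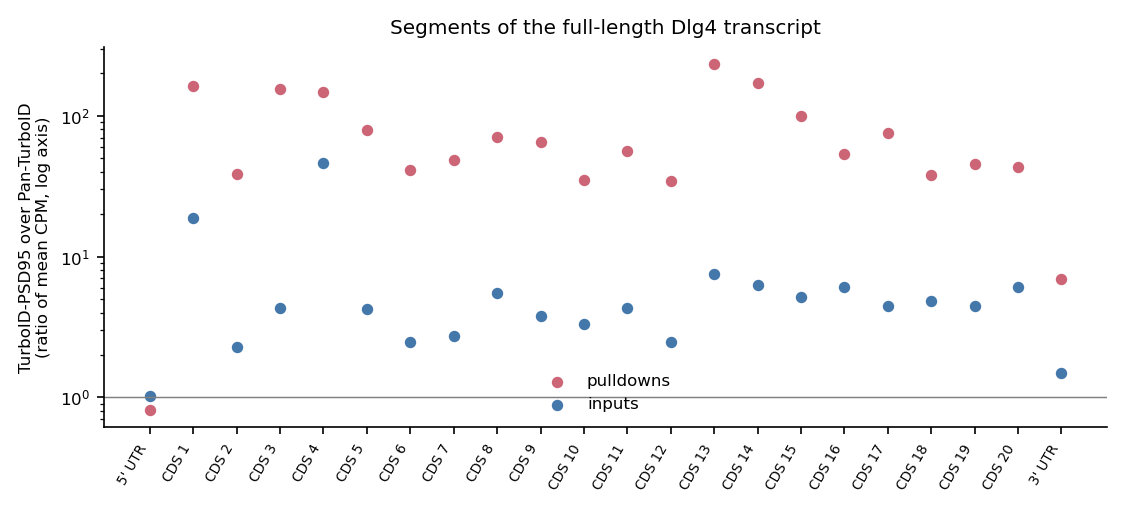
Ratio of mean CPM, TurboID-PSD95 over Pan-TurboID, on a log axis, for each segment of the full-length Dlg4 transcript in order from 5′ to 3′, for inputs and pulldowns, with 6 libraries of each bait. CDS segments lie at 34.3 or above in pulldowns, the 5′ UTR lies at 0.811 and the 3′ UTR, which has few counts, at 6.89.

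Segments of all transcripts were grouped by their overlap with the full-length CDS. Segments that overlap it count many of the same footprints again. Of the 36 segments wholly inside it, 35 were tested. All 35 had more footprints in TurboID-PSD95 pulldowns and 32 of them passed. Some of the 35, such as the one that starts at 70018920, passed the count filter through TurboID-PSD95 libraries, where they are high. Their direction and calls add no support. Where Pan-TurboID pulldowns had any count, the ratios ran from 34.3 to 232. All 9 segments partly inside that CDS were tested and passed, at 37.2 to 142, including stretches annotated as UTR in other transcripts. As each holds bases of that CDS, these calls say nothing on a change outside it. In the 5′ UTR segment chr11:70026824-70026988, 131 of 134 CPM in TurboID-PSD95 pulldowns fell in the CDS exon that it holds. The count filter depends on the same libraries as the change, so that the shares tested inside and outside are not compared. Of the 28 segments outside the full-length CDS, 8 were tested and 0 passed edgeR's test, with ratios from 0.811 to 7.02. The other 20 had at most 87 counts in 24 libraries. The 5 annotated 5′ UTR segments that end at the start codon, from 70018441, 70018444, 70018834, 70018861 and 70018879, had pulldown ratios of 0.811, 0.811, 0.935, 0.870 and 0.964. Their input ratios were 1.02, 1.02, 1.07, 0.963 and 0.948. These ratios lay near 1, although the construct, by the study's methods, contains the 5′ UTR of Psd95.

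Among the 8 outer segments that were tested, those of the 3′ UTR had the largest pulldown ratios, on very few footprints. The 837 nt of the full-length 3′ UTR had 0.811 CPM in Pan-TurboID inputs, 0.662 in Pan-TurboID pulldowns, 1.21 in TurboID-PSD95 inputs and 4.56 in TurboID-PSD95 pulldowns. The ratio of 6.89 in pulldowns did not pass, and 1 depolarized pulldown, replicate 1, had 18.8 CPM. The versions of 445 nt and 2827 nt from the same start gave 6.81 and 7.02. The shorter ones of 124, 143 and 259 nt, the intronic 3′ UTR of the short form and its 80 nt version, the upstream 3′ UTRs from 70017241 and 70017275, and the 5′ UTRs from 70016942, 70023920, 70027788, 70029487, 70029525, 70029716 and 70029817 were below the count filter.

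In the 5′ UTR of Dlg4, footprints were abundant in both baits. Resting inputs had 124, 159 and 170 CPM with Pan-TurboID and 86.1, 142 and 158 with TurboID-PSD95. Pulldowns had 48.5, 76.5 and 57.0 with Pan-TurboID and 29.1, 73.0 and 28.2 with TurboID-PSD95. The baits overlapped in both, and pulldowns lay below inputs of the same bait throughout. In depolarized neurons the inputs had 106, 194 and 214 CPM with Pan-TurboID and 231, 201 and 172 with TurboID-PSD95, and the pulldowns had 46.9, 95.4 and 91.7 and then 54.5, 102 and 50.6. With DHPG the inputs had 164, 145 and 143 CPM and the pulldowns 39.9, 46.3 and 75.2. Knockdown inputs lay between 104 and 163 CPM and their pulldowns between 18.3 and 36.6, so that the pulldown was lower in every experiment.

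The 5′ UTR contrasts between baits in this transcript were -0.01 ± 0.33 for inputs, -0.32 ± 0.33 for pulldowns and -0.31 ± 0.47 for the difference of changes on the log2 scale (SE). In each of these 3 comparisons edgeR called 0 of 10014 5′ UTRs, and 29, 322 and 153 had an unadjusted p under 0.05. All 3 numbers lie below the share of 0.05 that no difference would give. These tests were thus strict, and their 0 calls do not show equal levels. The same tests on longest transcripts, which hold the last 41 nt alone for Dlg4, also called 0. Against the mean of both inputs, the full-length 5′ UTR was lower in TurboID-PSD95 pulldowns by -1.67 ± 0.44 at rest (edgeR FDR 0.00392) and -1.43 ± 0.43 after KCl (edgeR FDR 0.0400). Such a fall was common, with 58.2% of 5′ UTRs lower at rest and 15.5% after KCl in that setting (15.6% in either direction). In the longest transcripts 61.5% of 10186 were called at rest and the median of all was -1.59. There Dlg3 was lower at -1.65 ± 0.51 (edgeR FDR 0.00747) and the 41 nt of Dlg4 stood at -1.35 ± 0.65 (edgeR FDR 0.0609), while the 5′ UTRs of Dlg1 and Dlg2 were below the filter. With the replicate number as a block, Dlg4 passed at rest at -1.42 ± 0.58 (edgeR FDR 0.0279) and Dlg3 after KCl at -1.15 ± 0.39 (edgeR FDR 0.0131).

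Compared with the rest of the genome, the 5′ UTR of Dlg4 took a large part of its footprints. In resting Pan-TurboID inputs 51.7% of its 5′ UTR and CDS footprints lay in the 5′ UTR, where the median of 11817 genes was 19.4%, and Dlg4 stood at percentile 88.8. Per nucleotide the 5′ UTR was 4.89 times as dense as the CDS, with a median of 2.02 over genes. In depolarized Pan-TurboID inputs the share was 71.4% and the density ratio 11.4 against a median of 2.26. The shares at rest were 3.54% for Dlg1, 17.7% for Dlg2 and 11.3% for Dlg3, so that Dlg4 stood apart from its relatives in this measure. Most of these footprints lay far from the start codon. In Pan-TurboID inputs 153 of 161 CPM fell 86 to 476 nt upstream of it and 7.59 CPM in the last 41 nt. This 5′ UTR holds 2 ATGs, 1 of them followed by an in-frame stop inside the UTR, and 74.6% of 1051 genes with a 5′ UTR of 428 to 523 nt have at least as many. The match says nothing on whether ribosomes start there.

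The share of all Dlg4 footprints that lay in the 5′ UTR was lower with TurboID-PSD95, without overlap between baits in pulldowns and with overlap in inputs. In the full-length transcript it was 59.8 ± 10.5% (SD, n = 6) in Pan-TurboID inputs and 29.5 ± 12.6% in TurboID-PSD95 inputs (n = 6; exact two-sided permutation test, p = 0.00433). In pulldowns it was 38.9 ± 12.2% and 1.60 ± 1.46% (exact permutation p = 0.00216, the smallest that 6 against 6 libraries can give). In the short longest transcript the shares of the last 41 nt were 15.2 ± 8.34% and 6.55 ± 6.59% in inputs (exact permutation p = 0.0693) and 9.44 ± 1.94% and 0.260 ± 0.195% in pulldowns (exact permutation p = 0.00216). The denominator of each share holds the CDS footprints, in which bait and endogenous mRNA cannot be told apart. As the 5′ UTR counts overlapped between baits, a lower share follows from the higher CDS count and is no further result. The 3′ UTR shares of the short transcript differed by -0.112 percentage points in inputs and -1.28 in pulldowns (exact permutation p = 1 and 0.182).

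Depolarization was tested for Dlg4 over both baits and in the libraries that carry no PSD95 construct. In the fit of all 24 libraries, inputs of both baits together differed after KCl from resting inputs by -0.70 ± 0.44 on the log2 scale (edgeR FDR 0.318), and pulldowns of Pan-TurboID by -0.95 ± 0.63 (edgeR FDR 0.462). None of the 4 genes passed in these, where 15.4% of genes passed in inputs and 5.03% in Pan-TurboID pulldowns. When the 12 Pan-TurboID libraries were fitted alone, a choice made after the values were seen, the full-length Dlg4 CDS fell by 0.81 ± 0.16 in inputs (edgeR FDR 0.00743, 4.46% of genes passed) and by 0.86 ± 0.16 in pulldowns (edgeR FDR 0.00479, 6.16% passed). In the short form the values were -1.05 ± 0.24 (edgeR FDR 0.0189, 4.16% passed) and -0.97 ± 0.24 (edgeR FDR 0.0255, 5.85% passed). The 3 depolarized libraries lay below the 3 resting ones in both fractions, as listed above. Its 5′ UTR in the same inputs stood at 0.16 ± 0.40 (edgeR FDR 1). Dlg1, Dlg2 and Dlg3 did not pass in the Pan-TurboID libraries alone. In the TurboID-PSD95 pulldowns KCl gave 0.24 ± 0.60 for Dlg4 (edgeR FDR 0.865), none of the 4 genes passed against 6.59% of all, and the depolarized libraries ran from below to above the resting ones.

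Resting dendritic translation was asked by setting the resting pulldowns of TurboID-PSD95 against the average of the inputs of both baits. Of the 4 genes 3 passed, where 31.2% of 13019 genes did. Dlg4 was higher by 4.47 ± 0.52 (edgeR FDR 0.000159), Dlg1 was higher by 1.43 ± 0.29 (edgeR FDR 0.00134), Dlg3 was lower at -0.53 ± 0.20 (edgeR FDR 0.0431) and Dlg2 stood at 0.05 ± 0.18 (edgeR FDR 0.859). After KCl, 18% of genes passed. Dlg4 was at 5.41 ± 0.54 (edgeR FDR 4.41e-05) and Dlg1 at 1.75 ± 0.29 (edgeR FDR 0.000647), both higher, with Dlg3 at -0.41 ± 0.20 (edgeR FDR 0.144) and Dlg2 at 0.20 ± 0.18 (edgeR FDR 0.459). Without replicate 3 both Dlg1 calls were lost, at 1.38 at rest (edgeR FDR 0.0638) and 0.94 after KCl (edgeR FDR 0.212). For Dlg4, footprints of the bait and of the cell's own mRNA cannot be told apart in these values. None of the 4 passed in Pan-TurboID pulldowns over their own inputs, where 9.62% of genes passed at rest and 8.79% after KCl. With input and pulldown of the same number taken as a pair, a fit added after the values were seen, none of the 4 passed there either, while 32.9% and 32% of genes did, and Dlg3 stood at -0.28 ± 0.14 at rest (edgeR FDR 0.124). In that paired fit Dlg3 was lower in TurboID-PSD95 pulldowns than in their own inputs both at rest, at -0.51 ± 0.14 (edgeR FDR 0.00454, 41.9% passed), and after KCl, at -0.51 ± 0.14 (edgeR FDR 0.00751, 34.6% passed). The change of the dendritic comparison with KCl was called by edgeR for 0 genes of 13019, and Dlg4 stood at 0.94 ± 0.74. DESeq2 called 1 gene and the likelihood ratio test 2. With edgeR 343 genes had an unadjusted p under 0.05, below the share that no difference would give. The 0 calls thus do not show an equal comparison.

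Dlg1, the scaffold SAP97, had low footprint counts that rose with the TurboID-PSD95 pulldown. Its CDS had 29.2, 26.0 and 27.0 CPM in resting Pan-TurboID inputs, 49.8, 41.2 and 32.7 in their pulldowns, 31.5, 20.1 and 28.7 in resting TurboID-PSD95 inputs and 66.0, 78.3 and 83.6 in their pulldowns. Depolarized Pan-TurboID had 21.2, 23.7 and 20.6 CPM in inputs and 39.8, 17.8 and 24.6 in pulldowns, and depolarized TurboID-PSD95 27.4, 18.4 and 26.2 in inputs and 39.2, 48.2 and 141 in pulldowns. The pulldowns of TurboID-PSD95 stood above all inputs, with replicate 3 after KCl the highest of all.

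Most of the Dlg1 difference between baits lay in 1 of its 25 CDS segments, chr16:31793504-31793640, which was picked after its values were seen. Its 137 nt had 0 to 4.63 CPM in the 12 Pan-TurboID libraries (median 2.22), 1.20 to 8.23 in the 13 TurboID-PSD95 inputs and 6.62 to 117 in the 13 TurboID-PSD95 pulldowns. Resting TurboID-PSD95 pulldowns had 29.7, 38.2 and 57.9 CPM there, depolarized ones 6.62, 28.4 and 117, DHPG pulldowns 21.4, 21.7 and 11.7, and the 4 knockdown pulldowns 31.2 to 49.8. The other 24 segments together had 19.5 to 40.1 CPM in TurboID-PSD95 pulldowns and 17.3 to 46.3 in Pan-TurboID libraries, overlapping in full. Up to 82.6% of all Dlg1 CDS footprints of a library lay in this segment. It was the 1 segment of Dlg1 among 30 tested to pass between pulldowns, higher by 4.66 ± 0.58 on the log2 scale (edgeR FDR 1.4e-05), and 0 of 42 segments of Dlg2 and 0 of 30 of Dlg3 passed edgeR's test. This Dlg1 call was lost without replicate 2 and without replicate 3.

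**Figure D3:**
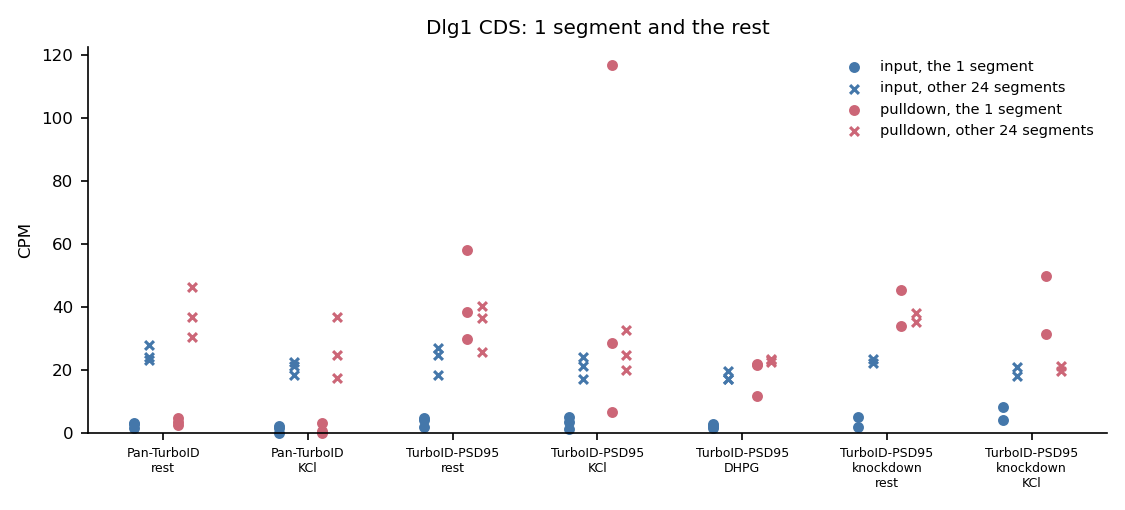
CPM of the 137 nt Dlg1 segment and of the other 24 CDS segments together, each point 1 library, by group. The single segment climbs to 117 CPM in TurboID-PSD95 pulldowns, while the rest of the CDS stays between 17.0 and 46.3 CPM in all groups.

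This segment is also the stretch of the other 3 genes that is most like Dlg4. It shares 110 of 137 bases (80.3%) with the Dlg4 exon at chr11:70031355-70031491, and the longest run of identical bases is 13 nt. A window of 30 bases from both is shown because it is where the genes come close in sequence, with the differing bases in capitals, 26 of 30 being the same.
Dlg1, chr16:31793536-31793565: aaTcagcacatTcctggTgataaCagcatc
Dlg4, chr11:70031387-70031416: aaCcagcacatCcctggAgataaTagcatc
Both are on the plus strand of mm10. Among 45 CDS segments of at least 100 nt in Dlg1, Dlg2 and Dlg3, identity with the Dlg4 CDS ran from 35.3% to 80.3% (median 68.3%). The pulldown ratio between baits was 19.7 for this segment and 0.356 to 1.48 for the other 44 (median 0.931). The other 7 segments at 75% identity or more, such as chrX:100772057-100772181 in Dlg3 with 79.2%, had ratios of 0.679 to 1.43. In TurboID-PSD95 pulldowns the count of the Dlg1 segment was 0.299% to 1.03% of the Dlg4 count (median 0.572%). It was 0.309% to 2.42% in TurboID-PSD95 inputs (median 0.772%). In Pan-TurboID libraries, which carry no PSD95 construct, it was 0% to 4.31% (median 1.96%). These identities are with the mouse Dlg4, whereas the construct carries the rat CDS, whose likeness to Dlg1 was not read. Whether reads of the construct were aligned to Dlg1 was not tested.

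**Figure D4:**
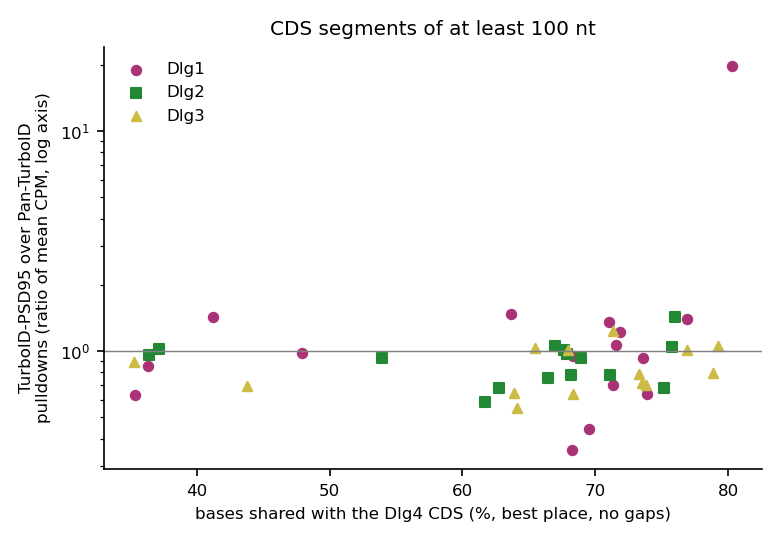
Each point is 1 CDS segment of at least 100 nt of Dlg1, Dlg2 or Dlg3, with the share of bases it has in common with the Dlg4 CDS on the x axis (%) and the ratio of mean CPM between TurboID-PSD95 and Pan-TurboID pulldowns on a log y axis. A single Dlg1 segment stands at 80.3% and 19.7, and the other 44 lie between 0.356 and 1.48.

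Every call for Dlg1 was read again without this segment. At rest the dendritic comparison then stood at 0.46 (edgeR FDR 0.127, 31.1% of genes passed) and after KCl at 0.28 (edgeR FDR 0.420), both no longer passing. The difference between baits fell from 1.16 to -0.03 and that between pulldowns from 1.20 to -0.09. The segment was picked for the largest ratio between baits in pulldowns of the KCl experiment. A fall of these values without it was thus fixed in advance and is no further result. In the other experiments Dlg1 stayed higher in DHPG pulldowns at 0.32 (edgeR FDR 0.0195, from 1.00, with 79.7% of genes passing) and in resting knockdown pulldowns at 0.67 (edgeR FDR 0.0281, from 1.54), while in depolarized knockdown pulldowns it stood at 0.01 (edgeR FDR 0.989, from 1.20).

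Dlg3, the scaffold SAP102, had more footprints in inputs than in pulldowns. Resting Pan-TurboID inputs had 165, 158 and 160 CPM and their pulldowns 137, 136 and 139, while resting TurboID-PSD95 inputs had 165, 145 and 165 and their pulldowns 116, 117 and 112. In depolarized neurons Pan-TurboID gave 108, 143 and 146 CPM in inputs and 87.1, 124 and 142 in pulldowns, and TurboID-PSD95 gave 122, 165 and 145 and then 61.1, 127 and 123. The resting pulldowns did not overlap with their inputs for either bait, and the depolarized ones did for both. Each pulldown lay below the input of its own number, at 0.827 to 0.866 of it for resting Pan-TurboID, 0.808 to 0.970 for depolarized Pan-TurboID, 0.680 to 0.803 for resting TurboID-PSD95 and 0.501 to 0.846 for depolarized TurboID-PSD95. The lower level in resting TurboID-PSD95 pulldowns was near the threshold and was lost in 6 of 12 alternatives (edgeR FDR up to 0.274), and the difference between baits was -0.26 ± 0.22 (edgeR FDR 1).

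Dlg2, the scaffold PSD93, passed no CDS test between groups of the KCl experiment. It had 107, 104 and 105 CPM in resting Pan-TurboID inputs and 132, 114 and 107 in their pulldowns, with 103, 112 and 77.6 in resting TurboID-PSD95 inputs and 113, 105 and 108 in their pulldowns. After KCl the 4 groups lay between 76.1 and 144 CPM. For both baits the depolarized libraries overlapped with the resting ones of the same fraction. The 5 CDS segments that its longest transcript has and the transcript with its highest count lacks carried 0, 14, 0, 6 and 76 counts over 24 libraries, so that nearly all footprints lay in the segments that both have. In its 3′ UTR, which had 0 to 1.80 CPM in inputs and 0 to 7.78 in pulldowns, resting TurboID-PSD95 pulldowns were higher by 3.26 ± 0.93 (edgeR FDR 0.0116, 16.4% of 2174 3′ UTRs called), and the call was lost without replicate 2 or without replicate 3. After KCl that value was 2.47 ± 0.93 (edgeR FDR 0.0908), where 7.22% passed. This 3′ UTR passed the count filter through pulldowns, where it is high, so that the call at rest adds no support. Between baits it did not pass, at 0.66 ± 1.13 for the difference of changes and 0.55 ± 0.74 for pulldowns.

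**Figure D5:**
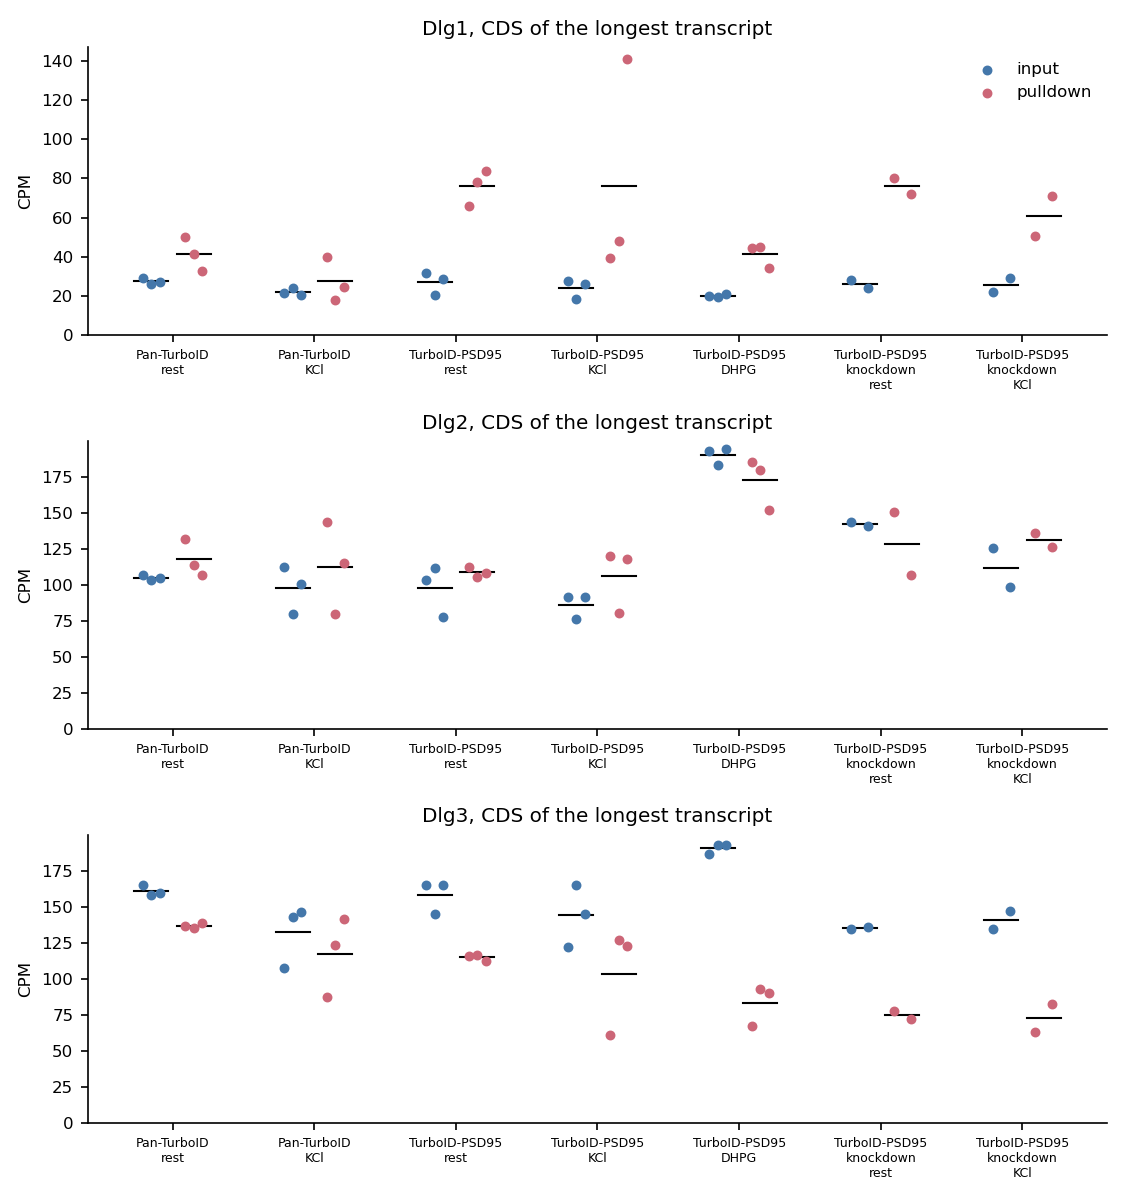
CDS footprints of Dlg1, Dlg2 and Dlg3 in CPM by group, each point 1 library, on linear axes, for the longest transcript. Dlg3 lies lower in pulldowns than in inputs in the DHPG and knockdown experiments, Dlg2 shows its highest values, 152 to 194 CPM, with DHPG, and the highest Dlg1 values, up to 141 CPM, lie in TurboID-PSD95 pulldowns.

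In the DHPG experiment 79.8% of genes passed between pulldowns and inputs, so that a call by itself says little there. All 4 genes passed. Dlg4 was higher in pulldowns by 3.18 ± 0.07 on the log2 scale (edgeR FDR 5.9e-16) and Dlg1 by 1.00 ± 0.13 (edgeR FDR 1.03e-06), while Dlg3 fell by 1.22 ± 0.09 (edgeR FDR 7.39e-10) and Dlg2 by 0.17 ± 0.08 (edgeR FDR 0.0482). The Dlg2 call was lost in 4 of 10 alternatives (edgeR FDR up to 0.132), among them those without replicate 2 or replicate 3, and its value ran from -0.80, with the trend over CDS length removed, to -0.11. Dlg3 had 187, 193 and 193 CPM in DHPG inputs and 67.5, 92.7 and 90.2 in pulldowns. Dlg1 had 19.8, 19.2 and 21.1 in inputs and 44.3, 45.0 and 34.0 in pulldowns. Dlg2 had 193, 183 and 194 in inputs and 185, 180 and 152 in pulldowns, which overlapped, whereas those of Dlg1 and Dlg3 did not.

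Against the resting TurboID-PSD95 libraries of the KCl experiment, where experiment and treatment cannot be told apart, Dlg2 was higher in DHPG inputs by 0.92 ± 0.13 (edgeR FDR 5.41e-05, 32.8% of genes passed). It was the 1 of the 4 genes to pass there, with Dlg1 at -0.47 ± 0.18 (edgeR FDR 0.0559), Dlg3 at 0.23 ± 0.12 and Dlg4 at -0.02 ± 0.25. In pulldowns, where 47.7% passed, Dlg2 was higher by 0.60 ± 0.13 (edgeR FDR 0.00105), while Dlg1 fell by 0.94 ± 0.17 (edgeR FDR 0.000297) and Dlg3 by 0.52 ± 0.12 (edgeR FDR 0.00236). Dlg4 stood at -0.58 ± 0.25 (edgeR FDR 0.0728). Without the 137 nt segment Dlg1 stood at -0.66 (edgeR FDR 0.0083). The summed markers of astrocytes moved with this comparison. They were 224 to 233 CPM in DHPG inputs and 287 to 311 in DHPG pulldowns, against 503 to 945 and 627 to 1344 in the resting libraries, with 0 of 6 markers at 0. The 8 markers of the oligodendrocyte lineage summed to 27.4 to 48.7 CPM with DHPG and 130 to 551 at rest, with at most 1 at 0 in a group. Their part in the results was not tested, and fewer cells of a type cannot be told apart from less RNA per cell in such bulk libraries.

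For the knockdown, the targeted gene was checked first. Eif4g2, which encodes an initiation factor related to eIF4G, had 211 to 319 CPM in the 8 knockdown libraries (268 ± 35.4, SD) and 334 to 728 CPM in the 12 TurboID-PSD95 libraries of the KCl experiment (500 ± 104), without overlap. Inputs gave 269 to 319 against 503 to 728, and pulldowns 211 to 276 against 334 to 517. The gene was thus lower in the libraries labelled as knockdown, in an experiment of its own, so that experiment and treatment cannot be told apart. The 6 markers of microglia summed to 6.61 to 23.4 CPM in the knockdown libraries and to at most 5.60 CPM in all others, with up to 2 markers at 0 in a knockdown group, and their part in the results was not tested.

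Within the knockdown neurons pulldowns were again set against inputs. At rest, where 45.5% of genes passed, Dlg4 was higher by 4.16 ± 0.11 (edgeR FDR 8.71e-20) and Dlg1 by 1.54 ± 0.21 (edgeR FDR 1.87e-06), Dlg3 fell by 0.87 ± 0.14 (edgeR FDR 2.33e-05), and Dlg2 stood at -0.14 ± 0.15 (edgeR FDR 0.455). After KCl, where 48.8% passed, Dlg4 was higher by 4.06 ± 0.12 (edgeR FDR 2.88e-19) and Dlg1 by 1.20 ± 0.24 (edgeR FDR 0.000151), Dlg3 fell by 1.02 ± 0.15 (edgeR FDR 5.4e-06), and Dlg2 stood at 0.16 ± 0.16 (edgeR FDR 0.418). Dlg3 had 135 and 136 CPM in resting inputs, 77.7 and 71.8 in resting pulldowns, 135 and 147 in depolarized inputs and 63.3 and 82.3 in depolarized pulldowns. Dlg1 had 28.1 and 24.1, 80.5 and 71.8, 22.0 and 29.2, and 50.7 and 70.9 in the same order. Inputs and pulldowns stood apart for both genes.

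Dlg2 had 144 and 141 CPM in resting knockdown inputs and 151 and 107 in resting pulldowns, which overlapped. It had 126 and 98.3 in depolarized inputs and 136 and 127 in depolarized pulldowns, which did not overlap. Its change at rest ran from -0.56 to 0.06 over 15 alternatives and passed in 2 of them (edgeR FDR down to 0.00355). In the main fit KCl moved none of the 4 genes past the threshold in knockdown neurons. Of all genes 19.3% passed in inputs and 22.2% in pulldowns. Dlg4 came nearest at -0.24 ± 0.10 in pulldowns (edgeR FDR 0.0813). It passed there with no filter on low counts and with the replicate number as a block. Whether the numbers pair these samples was not settled. Without its 137 nt segment Dlg1 was lower in these pulldowns at -0.87 (edgeR FDR 0.0216). Against neurons without knockdown, none of the 4 passed in resting inputs, depolarized inputs, resting pulldowns or depolarized pulldowns, where 3.9%, 5.31%, 9.15% and 18.9% of genes passed. The nearest were Dlg3 in resting pulldowns, at -0.64 ± 0.25 (edgeR FDR 0.107), and Dlg3 in depolarized pulldowns, at -0.55 ± 0.25 (edgeR FDR 0.119).

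The genes that work with PSD95 were read as 3 lists. They were read in the main fit alone, so that how far their values follow CDS length was not tested. Of 28 partners of PSD95, which include receptors, adhesion proteins and the Dlgap and Shank scaffolds, 27 were tested. In resting TurboID-PSD95 pulldowns 8 were higher and 1 lower, with a median log2 fold change of 0.27 against -0.04 over all genes, of which 14.7% were higher and 16.4% lower. Kcnj4, a potassium channel, was higher by 1.19 ± 0.19 (edgeR FDR 0.000358) and Adam22, a receptor of the secreted protein Lgi1, by 0.60 ± 0.16 (edgeR FDR 0.00593), whereas Cript, which binds the third PDZ domain of PSD95, was lower at -1.09 ± 0.33 (edgeR FDR 0.0152). After KCl 11 were higher and 0 lower, with a median of 0.51 against -0.01 over all genes, of which 11.2% were higher and 6.84% lower. The list was led by Lrrtm2, an adhesion protein, at 1.08 ± 0.20 (edgeR FDR 0.00137) and Dlgap1, which binds the guanylate kinase-like domain, at 0.90 ± 0.19 (edgeR FDR 0.00346). In Pan-TurboID pulldowns over inputs 2 were higher at rest, where 4.57% of all genes were, and 7 after KCl, where 5.15% were. That contrast uses the inputs of 1 bait and the one above those of both, so that their counts are not compared. Summed over the 28 partners, resting pulldowns had a mean of 3073 CPM with TurboID-PSD95 and 3065 with Pan-TurboID. Depolarized pulldowns had 2612 and 2600. In the 3 contrasts between baits none of the 27 passed. Almost no gene of all those tested passed there either, as given above, so that this count says little on the partners.

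KCl lowered part of the partners in inputs, with 11 lower and 1 higher and a median of -0.42, where 9.03% of all genes were lower and 6.32% higher. Kcnj4 was at -1.63 ± 0.17 (edgeR FDR 1.21e-07), Dlgap3 at -1.66 ± 0.19 (edgeR FDR 8.41e-07) and Baiap2, a regulator of actin, at 0.88 ± 0.18 (edgeR FDR 0.000911). In DHPG pulldowns 23 were higher than in inputs and 2 lower, with a median of 0.79, where 40.5% of all genes were higher and 39.3% lower. Nlgn3, an adhesion protein, was at 1.15 ± 0.06 and Dlgap1 at 1.41 ± 0.07, while Cript was at -1.80 ± 0.14 and Baiap2 at -0.41 ± 0.07. In knockdown pulldowns 16 were higher and 1 lower at rest, where 22.1% of all genes were higher and 23.4% lower. After KCl 15 were higher and 3 lower, where 24% and 24.8% of all genes were. Shank1 and Shank2 led at rest with 1.69 ± 0.13 and 1.62 ± 0.14, Dlgap1 and Sipa1l1 led after KCl with 1.39 ± 0.14 and 1.12 ± 0.16, and Cript was lower in both, at -2.13 ± 0.29 and -2.31 ± 0.30. Cript was thus lower in the pulldown in 4 of these 5 comparisons with TurboID-PSD95. The trend over CDS length was not taken out of these values.

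Of the 15 other MAGUKs none passed in resting TurboID-PSD95 pulldowns, where 31.2% of all genes did, and after KCl Mpp3 was the 1 higher gene at 0.66 ± 0.22 (edgeR FDR 0.0377), where 11.2% of all genes were higher. KCl lowered 3 of 15 in inputs, where 9.03% of all genes were lower, among them Mpp6 at -1.03 ± 0.22 (edgeR FDR 0.0019) and Dlg5, which shares the family's symbol but is a more distant relative, at -0.64 ± 0.16 (edgeR FDR 0.00556). In DHPG pulldowns 5 of 14 were higher, with Mpp3 at 0.91 ± 0.09 and Tjp1 of tight junctions at 0.87 ± 0.09, and 5 lower, with Magi1 at -0.92 ± 0.09 and Magi2 at -0.75 ± 0.09, both shares being near the 40.5% and 39.3% of all genes. Of 7 enzymes that add or remove palmitate on PSD95, Zdhhc2 was higher in resting TurboID-PSD95 pulldowns at 0.98 ± 0.26 (edgeR FDR 0.00764) and Zdhhc7 in depolarized ones at 1.28 ± 0.42 (edgeR FDR 0.0376), 1 of 7 in each, where 14.7% and 11.2% of all genes were higher. In inputs KCl lowered Zdhhc7 at -1.81 ± 0.35 and the depalmitoylase Abhd17a at -0.86 ± 0.29 and raised Zdhhc15 at 1.27 ± 0.31, which is 2 of 7 lower and 1 higher against 9.03% and 6.32% of all genes. Zdhhc2 and Zdhhc15 are transferases known to act on PSD95.

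The genes whose pattern over the 8 group means of the KCl experiment was most like each member were found among 7704 genes by Pearson's r of log2 CPM, as a description. Dlg1 was followed most closely by Chd9 (0.966), H2afy2 (0.964) and Phf20l1 (0.962), and Dlg2 by Aqr (0.983), Retreg3 (0.981) and Chrm1 (0.975). Dlg3 was followed by Zfp579 (0.994), Thap4 (0.989) and Ppfia3 (0.988), and Dlg4 by Lin54 (0.970), H2afy (0.907) and Phkg2 (0.882). For Dlg4 the values of H2afy and Phkg2 lay below all those of the other 3 genes, while that of Lin54 lay above those of Dlg1.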

How the data were processed

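Primary cortical neurons expressing Pan-TurboID or TurboID-PSD95 gave 38 ribosome profiling libraries in 14 groups, assigned by GEO's labels. For DHPG inputs and knockdown libraries the labels conflict, since 1 field names the cytosol and the virus field, used here, names PSD95. By their methods, the authors trimmed reads, split the pooled libraries, removed molecular identifiers, aligned reads to mm10 with Rsubread and counted footprints with plastid, per the file headers as 5′ ends per exon segment without an offset. How strand and reads with several places were handled is not given in the sources used here. The deposited counts are whole numbers per exon segment of each transcript, with separate files for CDS and either UTR, in 114 files, and replicates were not pooled. The deposited RPKM values equal the counts divided by segment length and library size in every file within a relative tolerance of 1e-06, as was checked, and were otherwise not used. Counting 5′ ends without an offset puts ribosomes at the first codons into the 5′ UTR.

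Of 67238 coding transcripts, 66664 were named through GENCODE M21, which uses the same assembly, giving 22401 genes, and 574 were left out. Counts were summed over the longest transcript of each gene, with the transcript of the highest count as an alternative. edgeR 4.0.16 (R 4.3.3) tested them with its quasi-likelihood F test (robust, TMM scaling, filterByExpr, Benjamini-Hochberg FDR of 0.05 over all genes), in fits of 24, 6, 12, 8 and 20 libraries for the KCl experiment, DHPG, DHPG with rest, knockdown, and knockdown with the matching libraries. UTR and segment counts used the CDS library sizes. CPM are CDS counts over the TMM-scaled library size. Each standard error is the log2 fold change over the root of its F value. UTR shares were compared by exact two-sided permutation tests. DESeq2 1.42.0 served as an alternative. The procedure was tested on simulated data. The members, gene lists and tests were chosen with earlier results of these data known. From each list the text names at most 2 genes per direction with the smallest p among those that passed. Of Dlg4 segments it names the starts, the 2 highest and 2 lowest CDS ratios and the UTR segments. Printed bases come from the GRCm38 (mm10) reference.

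Library totals ranged from 5906281 to 35643247 counts, with 2048601 to 14646331 in CDSs. Counting intervals are not given, since replicates differed by more than counting error (chi-square per gene of at least 1.48). In the KCl experiment the same replicate number paired input and pulldown, as the methods process a replicate together and the deviations of all such pairs correlated above 0.1 (r of 0.144 to 0.492). Such pairs were blocked in an added fit. In DHPG (r from -0.0728 to 0.0179) and knockdown libraries (0.000607 to 0.0216) the numbers showed no correlation above 0.1. By the methods, inputs were set aside from the same fractions as the pulldowns, so that these values do not exclude a pairing. Replicates are separate samples in the labels, without a statement of separate cultures in them, so p-values measure the spread between these samples.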

Additional observations from a re-analysis of the deposited data

Results flagged for a closer look

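In 2 results the effect of the pulldown differed between the baits by a test of the difference itself. For the Dlg4 CDS, the pulldown-over-input change was larger with TurboID-PSD95 than with Pan-TurboID by 4.17 on the log2 scale (edgeR FDR 0.0412). This call was lost without replicate 1 or replicate 2, with no filter on low counts, and with the trend over CDS length removed. For its segments, 23 of 52 tested passed that same test, where 25 of all 187058 segments did. All 23 were higher with TurboID-PSD95, but 0 passed without replicate 2 and 9 without replicate 3. Segments overlap, so that the 23 count many of the same footprints again. Among the 20 CDS segments of the full-length transcript 12 passed. Some of the 52 passed the count filter through TurboID-PSD95 libraries, where they are high, so that the share of 52 adds no support. The construct holds a PSD95 coding sequence, so that bait and endogenous footprints cannot be told apart in either result.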

How the results depend on the processing

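Of 43 comparisons, 27 kept their result in every alternative, as did 390 of 431 pairs of comparison and alternative. A count of passing genes or segments was taken as kept where it stayed within a fixed factor, not only where it was equal. The loss of Dlg2 from DHPG pulldowns with the block, given below, was thus taken as kept. Of 1271 values of single members under an alternative, 1219 kept their side of the threshold, 23 lost significance, 29 gained it and 0 reversed. A change of sign was counted as a reversal only where the main or the alternative value passed, so that values that did not pass may differ in sign. The values below are numbers of the 4 genes past an FDR of 0.05 unless another quantity is named, and causes were not tested unless stated.

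Leaving out 1 replicate at a time gave 1 to 3 genes in the resting dendritic comparison (1 without replicate 3, where Dlg1 stood at 1.38 with edgeR FDR 0.0638) and 1 to 2 after KCl (1 without replicate 3, Dlg1 at 0.94, edgeR FDR 0.212). It gave 0 to 1 for the bait difference, 0 to 2 for bait pulldowns, 0 to 1 for KCl in knockdown pulldowns, 0 to 1 for each of the 5′ UTR and each of the 3′ UTR dendritic comparisons, 0 to 24 Dlg4 segments for the bait difference (0 without replicate 2, 9 without replicate 3) and 0 to 17 for inputs. The 5′ UTR share of Dlg4 in inputs differed by -11.4 to -4.83 percentage points in the longest transcript, and by -30.3 in the transcript with the highest count. With no filter on low counts, 0 genes passed the bait difference, 2 bait pulldowns (Dlg1 and Dlg4) and 1 KCl in knockdown pulldowns. With the trend over CDS length taken out of each library, 0 passed the bait difference, 2 bait pulldowns, 2 DHPG inputs against rest and 1 depolarized pulldowns with against without knockdown. The likelihood ratio test gave 2 for bait pulldowns and 2 for DHPG inputs against rest, and DESeq2 gave 2 for bait pulldowns. With the transcript of the highest count, 3 genes passed in the 5′ UTR at rest and 1 after KCl. 5 alternatives were chosen after seeing the data. Without its 137 nt segment, Dlg1 left the depolarized dendritic comparison, leaving 1, and joined KCl in knockdown pulldowns, giving 1. In Pan-TurboID libraries alone, 1 gene (Dlg4) passed for KCl in inputs and 1 in pulldowns with either transcript.

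With the replicate number as a block over all groups, 2 genes passed in the 5′ UTR at rest and 1 after KCl. For KCl in knockdown pulldowns 1 passed. In DHPG pulldowns over inputs 3 passed in place of 4, without Dlg2 (edgeR FDR 0.0559). Whether the numbers pair samples in the DHPG and knockdown experiments was not settled. The block changed no other count of members past the threshold. With input and pulldown of 1 number as a pair, 1 gene passed the bait difference, 0 Pan-TurboID pulldowns, and 3 TurboID-PSD95 pulldowns over their own inputs in either condition, Dlg3 being added after KCl. Across conditions and baits of the KCl experiment, r of the same numbers was -0.181 to 0.519 (median 0.0163) over 72 pairs, of which 48 were at or below 0.1. These numbers were taken as pairs only in the block over all groups. By the paper, resting and activated samples of a replicate were handled at the same time.

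Depth limits the UTRs most. The 3′ UTRs of Dlg1, Dlg3 and Dlg4 and the 5′ UTRs of Dlg1 and Dlg2 were below the count filter in the longest transcripts, and the spread of TurboID-PSD95 replicates limits the Dlg4 values of the fits that hold them.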
